A study of Mus musculus with 24 samples.

Results

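The T cell and cytotoxic granule genes are 10 genes taken by symbol, namely Cd3d, Cd3e and Cd3g of the T cell receptor complex, the kinase Lck, the coreceptors Cd4 and Cd8a, the granzymes Gzma, Gzmb and Gzmk, and the granule membrane protein Nkg7. They are 10 of the 30153 genes in the deposited table, and 7 of them are among the 12923 genes that reached 1 TPM (transcripts per 1e+06, a level corrected for transcript length) or more in at least 4 of the 16 kidney libraries described here. Cd4, Cd8a and Gzmb did not reach that level. Gzmk reached it in exactly 4 libraries, all of 1 group, and Cd3e in exactly 4 libraries of 2 groups, so for Gzmk the filter itself required a high value in the group where it was high.

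The study compared mice of the C57/BL6 strain, 4 animals per group. Hap-I and Hap-II are lines that overexpress the human angiotensin receptor type 1 in its haplotype I or haplotype II form. The labels do not name the promoter, the copy number, the sex, the batch or the age in weeks. The 4 groups used here were Hap-I adult mice on western diet, Hap-I aged mice on western diet, Hap-II adult mice on western diet, and C57 adult mice for which neither a transgene nor a diet is named. Absence of the western diet in C57 was inferred from that. The remaining 8 libraries, labelled kidney of Hap-I adult and Hap-I aged mice with no diet named, held summed neuronal marker levels of 3520 to 4500 TPM against at most 5.13 TPM in the 16 libraries, and 12 nephron markers summed to 44.9 to 163 TPM in them against at least 8360 TPM. Those 8 libraries went against their kidney label and were kept out of the comparisons. The tissue label held in the other 16 by these same nephron and neuronal sums.

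A T cell recognises peptide through its receptor, which signals only with the CD3 chains. Lck, a Src-family kinase carried to the receptor by CD4 or CD8, phosphorylates those chains. Cytotoxic T cells and natural killer (NK) cells store granzymes, which are serine proteases, in granules and release them into target cells. The healthy kidney holds few such cells, mostly in the interstitium, and their number grows in hypertension and in injury. Granzyme K is known from a memory-like CD8 T cell population that accumulates in tissues of old mice.

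All 10 genes were weakly expressed in kidney. Over the 16 libraries Lck had the highest mean level, 2.63 TPM, followed by Cd3g with 2.32, Nkg7 with 1.91, Gzma with 1.52 and Cd3d with 1.41 TPM. Cd4 averaged 0.840 TPM, Cd8a 0.659, Cd3e 0.651, Gzmk 0.650 and Gzmb 0.304 TPM. Lck therefore stood above 55.3% of the genes detected in these libraries and Gzmb above 35.5%. TPM keep no read depth, so the depth behind these low values is unknown and no counting interval can be given. In bulk kidney, fewer T cells and less RNA per T cell cannot be told apart.

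**Figure D1:**
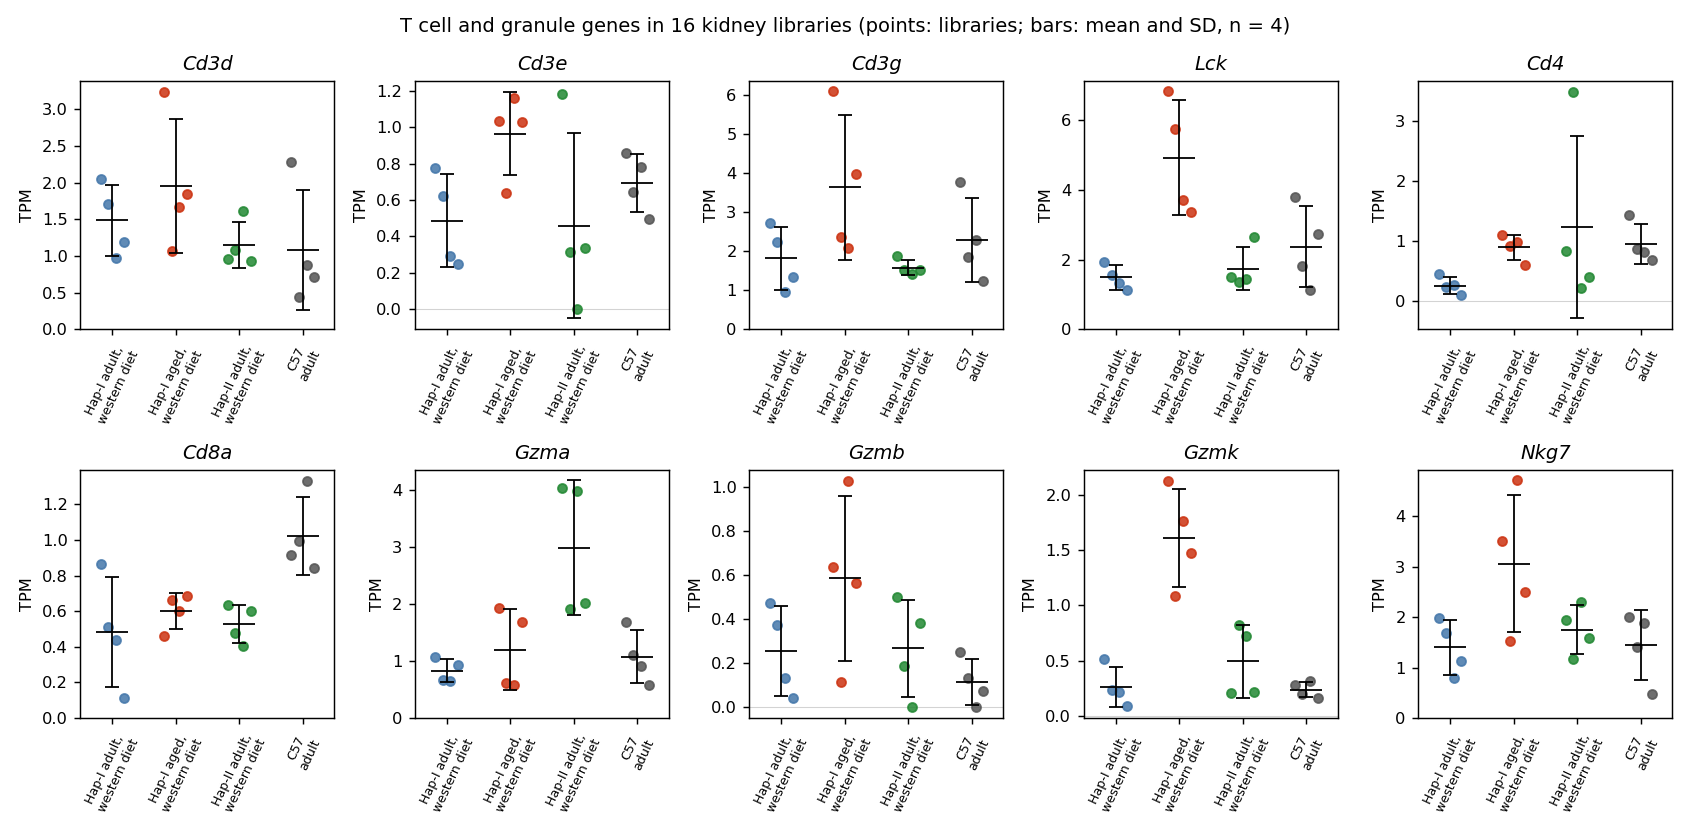
TPM of each of the 10 genes (vertical axes, scaled per gene) in the 16 kidney libraries by group (horizontal axis); points are libraries and bars the mean with SD, n = 4. Gzmk in the 4 aged Hap-I libraries, 1.08 to 2.12 TPM, lies above the other 12, and Gzma in the Hap-II libraries, 1.92 to 4.04 TPM, lies above the adult Hap-I and C57 libraries.

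The comparison of aged with adult Hap-I mice, both on western diet, asks how these transcripts differ with age. Each of the 7 tested members had a higher estimate in the aged mice, and none of the 7 passed the test. Their median difference was 0.68 in log2(TPM + 1) against 0.32 over all 12923 genes. Gzmk was among the 7 only through its 4 aged libraries, and Cd3e through 3 aged libraries and 1 Hap-II library. The filter thus favoured higher aged values in this count and median. Without the filter the differences were 0.59 for Cd4, 0.32 for Gzmb and 0.13 for Cd8a. The share of all genes with a higher estimate was not computed. The estimate was below 0 for Cd3d with median-of-ratios rescaling (-0.0062) and for Cd3d and Gzma with quantile normalization (-0.08 and -0.03), where the members' median was 0.43 and 0.37. With the level of pan-leukocyte genes as a covariate, the estimate was -0.22 for Cd3d and -0.08 for Gzma. The background was low here: 4 genes, or 0.031%, were called by limma at an adjusted p under 0.05, namely Tusc3, Gm8203 and ENSMUSG00000062783 higher and Sap18 lower, which are given because they are all that passed. At an unadjusted p under 0.05 there were 2080 genes. Gzmk and Lck were nearest to the threshold among the members.

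Gzmk encodes granzyme K, a protease with trypsin-like specificity. It measured 2.12, 1.08, 1.76 and 1.47 TPM in aged Hap-I replicates 1 to 4 and 0.517, 0.236, 0.216 and 0.0855 TPM in adult Hap-I replicates 1 to 4. The Hap-II libraries held 0.206, 0.822, 0.722 and 0.218 TPM and the C57 libraries 0.277, 0.197, 0.312 and 0.160 TPM. Every aged library was above every library of the other 3 groups, which overlapped each other. The means were 1.61 ± 0.442 TPM (SD, n = 4) in aged and 0.264 ± 0.182 TPM (SD, n = 4) in adult Hap-I mice, a ratio of 6.1. Gzmk passed the filter only because these 4 aged libraries reached 1 TPM, so the filter favoured this contrast and the filtered p is no independent support. On the log2(TPM + 1) scale, which compresses low values, the difference was 1.04 ± 0.19 (SE; 95% interval 0.64 to 1.44), with a limma adjusted p of 0.0619. That p moved across the threshold with the settings, from 0.00353 to 0.935 over 20 alternatives. It was 0.0467 with no filter on low values, where 5 genes (0.0224% of 22319) were called higher, and 0.00353 when all 24 libraries shared 1 estimate of the spread, where 2.7% of 15200 genes were called higher. It was 0.0475 without adult replicate 1 and 0.0496 without aged replicate 4.

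Lck measured 6.84, 5.73, 3.72 and 3.38 TPM in the aged Hap-I libraries against 1.94, 1.57, 1.32 and 1.13 TPM in the adult ones. The lowest aged library was above the highest adult library. Hap-II adults held 1.49, 1.37, 1.45 and 2.65 TPM and C57 adults 3.81, 1.82, 1.12 and 2.73 TPM, so C57 replicate 1 reached into the aged range. The aged mean of 4.92 ± 1.65 TPM (SD, n = 4) was 3.3 times the adult mean of 1.49 ± 0.348 TPM (SD, n = 4). The difference was 1.22 ± 0.27 (SE) in log2(TPM + 1), with a limma adjusted p of 0.0916. It ranged from 0.85 to 1.62 over 20 alternatives, with adjusted p from 0.0192, in the fit of all 24 libraries, to 0.956.

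The CD3 chains were higher in some aged libraries only. Cd3g, the gamma chain, measured 6.09, 2.36, 2.07 and 3.98 TPM in aged and 2.72, 2.23, 0.963 and 1.35 TPM in adult Hap-I mice. Aged replicates 1 and 4 lay above all adult libraries and replicates 2 and 3 within their range, and the difference of 0.68 ± 0.29 (SE) had a limma adjusted p of 0.278. Cd3e, the epsilon chain, measured 1.03, 0.639, 1.16 and 1.03 TPM against 0.777, 0.624, 0.291 and 0.251 TPM (difference 0.41 ± 0.22 SE, limma adjusted p 0.339). Only aged replicate 2 fell within the adult range. Cd3d, the delta chain, measured 3.23, 1.06, 1.66 and 1.85 TPM against 2.04, 1.71, 0.978 and 1.20 TPM, a difference of 0.22 ± 0.27 (SE) that was smaller than its error. The 3 chains are neighbours on chromosome 9 (GRCm38), with Cd3g at 44969572-44980431 on the minus strand, Cd3d at 44981786-44987339 on the plus strand and Cd3e at 44998740-45009627 on the minus strand. Only 1354 bases separate Cd3g and Cd3d, which are transcribed away from each other. Their deviations from the group means had a Pearson r of 0.813 over the 16 libraries, the highest of the 45 pairs of members, given as a description of libraries that also share their leukocyte level.

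Summed over the 3 chains, CD3 transcripts came to 10.4, 4.06, 4.89 and 6.86 TPM in aged Hap-I and to 5.54, 4.56, 2.23 and 2.79 TPM in adult Hap-I libraries. The Hap-II libraries held 4.01, 2.92, 3.02 and 2.79 TPM, and the C57 libraries 6.89, 2.92, 3.93 and 2.44 TPM. Aged replicate 1 and C57 replicate 1 were the highest, and aged replicates 2 and 3 lay within the adult Hap-I range.

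Nkg7, a membrane protein of cytotoxic granules, measured 3.50, 1.53, 4.71 and 2.50 TPM in aged and 1.98, 1.70, 0.786 and 1.14 TPM in adult Hap-I mice. Aged replicate 2 lay within the adult range and the other aged libraries above it. The difference was 0.72 ± 0.28 (SE), with a limma adjusted p of 0.248. Granzyme B, which cleaves after aspartate and activates caspases in target cells, was the weakest member. Gzmb measured 0.637, 0.111, 1.02 and 0.563 TPM in aged and 0.473, 0.371, 0.131 and 0.0386 TPM in adult Hap-I libraries, with no clear separation. It was listed at 0 in Hap-II replicate 3 and C57 replicate 3.

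Cd4, the coreceptor of helper T cells, measured 1.10, 0.914, 0.982 and 0.600 TPM in aged and 0.453, 0.236, 0.267 and 0.0996 TPM in adult Hap-I mice. These libraries did not overlap, and the adult Hap-I libraries were also all below the C57 ones (1.44, 0.877, 0.824 and 0.691 TPM). In the fit without a filter, Cd4 differed with age by 0.59 ± 0.30 (SE), with a limma adjusted p of 0.451. Hap-II replicate 2, at 3.48 TPM, was far above the other Hap-II libraries (0.843, 0.230 and 0.401 TPM). Cd8a, the coreceptor of cytotoxic T cells, measured 0.458, 0.663, 0.599 and 0.686 TPM in aged and 0.865, 0.513, 0.436 and 0.113 TPM in adult Hap-I mice, a difference of 0.13 ± 0.13 (SE) in the same fit, with the aged values inside the adult range.

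**Figure D2:**
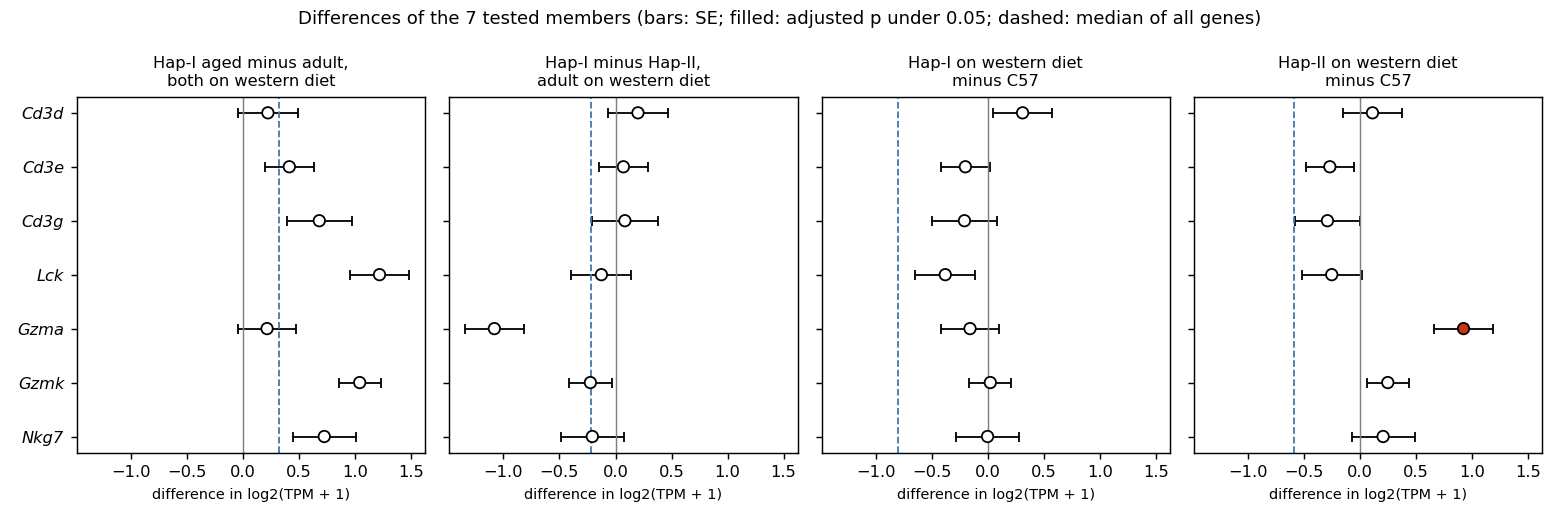
Difference in log2(TPM + 1) (horizontal axes) of the 7 tested members in the 4 comparisons; bars are SE, filled points have an adjusted p under 0.05, and the dashed line is the median of all 12923 genes. Gzma in Hap-II against C57, at 0.92, is the single filled point, while Gzmk and Lck have the largest differences with age, 1.04 and 1.22.

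Markers of other leukocytes were also at higher levels in aged libraries. The summed level of 6 pan-leukocyte genes was 74.2 to 163 TPM in aged and 35.0 to 80.2 TPM in adult Hap-I libraries. The 6 B and plasma cell markers summed to 51.1 to 123 TPM against 8.27 to 33.2 TPM, with no overlap, and the 7 macrophage and dendritic cell markers to 41.1 to 105 TPM against 15.7 to 56.2 TPM. No gene of these 3 lists passed the test with age. Markers of other tissue differed too. Lymph node stroma markers summed to 20.7 to 46.4 TPM in aged against 8.92 to 28.6 TPM in adult Hap-I libraries. Adipose markers summed to 145 to 334 against 114 to 200 TPM, and nephron markers to 8360 to 70700 against 20900 to 81300 TPM. These ranges overlapped and no gene of these lists passed either. The part of tissue sampling in the age differences was not tested. With the mean log2 level of the pan-leukocyte genes as a covariate, an alternative chosen after seeing the data, the age difference was 0.90 for Gzmk, 0.85 for Lck, 0.38 for Nkg7 and 0.11 for Cd3g. It was 0.02 for Cd3e and below 0 for Gzma and Cd3d (-0.08 and -0.22), and the limma adjusted p of the 7 lay between 0.935 and 0.99. Of the 5 NK markers, 4 stayed under 0.5 TPM in every adult Hap-I, Hap-II and C57 library and 1 did so in every aged library. The sum of the 4 thymus markers never exceeded 1.13 TPM. Transcripts of Y-linked genes were present (Eif2s3y at 5 TPM or more) in 3 of 4 adult Hap-I, 2 of 4 aged Hap-I, 2 of 4 Hap-II and 0 of 4 C57 libraries, although the labels give no sex. With the 4 Y-linked genes as a covariate the age difference was 1.03 for Gzmk and 1.18 for Lck.

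Within the aged group, Gzmk averaged 1.62 TPM in the 2 libraries with Y-linked transcripts and 1.60 TPM in the 2 without, whereas Lck averaged 3.55 and 6.28 TPM. Both Lck averages lay above the highest adult Hap-I library. In adult Hap-I, the 1 library without Y-linked transcripts, replicate 1, was the highest of its group for every member. It held 0.517 TPM of Gzmk and 1.94 TPM of Lck, against 0.0855 to 0.236 and 1.13 to 1.57 TPM in the 3 with them. The same library had the highest pan-leukocyte mean of that group, 3.19 in log2(TPM + 1), and 1 library cannot separate the 2.

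The granzymes differed in which of them made up most of the transcripts. Gzma and Gzmk are neighbours on the minus strand of chromosome 13 (GRCm38), Gzma at 113093825-113100981 and Gzmk at 113171608-113225908, with 70626 bases and no other coding gene between them. Gzmb lies apart, on chromosome 14 at 56258838-56262260, minus strand. The long annotated span of Gzmk contains Esm1 on the opposite strand, and the library kit was stranded, but whether quantification used strand is not given in the sources used here. Gzma and Gzmk share none of their 31-base words with another annotated gene, and Gzmb shares 1.35% of its words with Gzmc.

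Because neighbouring genes on the same strand had their highest levels in different groups, the 250 bases before the annotated start of each are shown (RefSeq, GRCm38.p6, minus strand, 5′ to 3′). The capitals mark matches on either strand to the core letters searched, which were TGTGGT for RUNX, GGTGTG for T-box, GGAAAA for NFAT, TGANTCA for AP-1 and TATAAA for the TATA box. The marked matches do not overlap each other. The RefSeq start of Gzmk lies within its longer GENCODE span. The Gzmk region is chr13:113180966-113181215 and the Gzma region is chr13:113100982-113101231.
Gzmk: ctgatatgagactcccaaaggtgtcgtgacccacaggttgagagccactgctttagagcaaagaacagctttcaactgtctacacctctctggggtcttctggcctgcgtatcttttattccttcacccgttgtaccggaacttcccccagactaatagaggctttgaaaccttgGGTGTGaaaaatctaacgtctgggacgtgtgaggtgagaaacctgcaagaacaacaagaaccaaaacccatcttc
Gzma: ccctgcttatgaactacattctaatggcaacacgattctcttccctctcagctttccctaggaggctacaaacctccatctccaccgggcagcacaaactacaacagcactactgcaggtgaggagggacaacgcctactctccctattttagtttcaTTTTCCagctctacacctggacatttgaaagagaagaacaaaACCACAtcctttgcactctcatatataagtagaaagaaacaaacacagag
The Gzmk stretch held a T-box match at -75 from the start and none of the other letters, and the Gzma stretch held an NFAT match at -92 and a RUNX match at -50, both as the reverse complement. Among the 250 bases before all 32851 RefSeq starts, 16.3% of the stretches held the T-box letters, 20.4% the NFAT letters and 14.0% the RUNX letters. A match is a description of letters and no sign of binding. Of the 10 members, 9 had an entry in the promoter table.

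The Gzmk share of the summed Gzma, Gzmb and Gzmk level was 45.3, 60.0, 52.4 and 39.5% in the aged Hap-I libraries. It was 25.1, 18.5, 21.5 and 8.09% in adult Hap-I, 4.33, 28.1, 15.4 and 8.31% in Hap-II and 12.5, 13.8, 25.4 and 19.7% in C57 libraries. The lowest aged share lay above the highest share in the other 12 libraries. Because each share is a ratio within a library, it does not depend on how that library was scaled, and it shows unequal change among the 3 granzymes rather than which of them moved. Gzma made up most of the sum elsewhere, on average 64.5 ± 17.0% (SD, n = 4) in adult Hap-I, 78.2 ± 9.1% (SD, n = 4) in Hap-II and 74.8 ± 2.5% (SD, n = 4) in C57 libraries, against 34.4 ± 12.4% (SD, n = 4) in the aged.

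**Figure D3:**
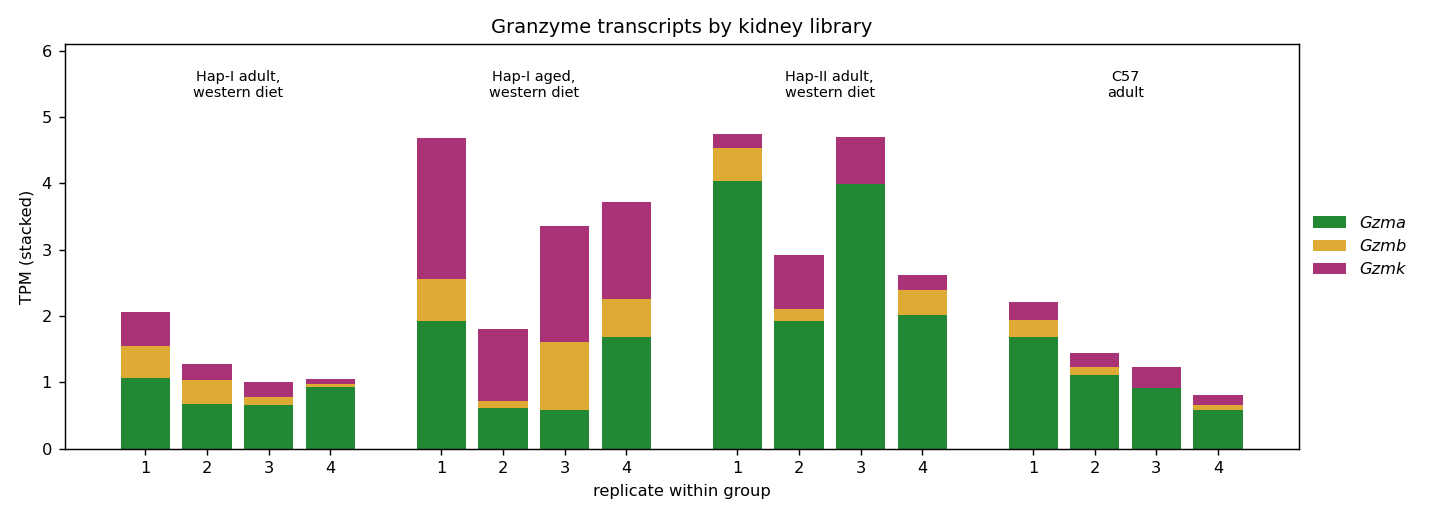
Stacked TPM of Gzma, Gzmb and Gzmk (vertical axis) in each of the 16 kidney libraries (horizontal axis, replicates 1 to 4 within each group). The Gzmk part is largest in the 4 aged Hap-I libraries, 1.08 to 2.12 TPM, and the Gzma part in the 4 Hap-II libraries, 1.92 to 4.04 TPM.

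The comparison of Hap-I with Hap-II adults, both on western diet, asks whether the receptor haplotype goes with a difference. Gzma was the single member whose libraries did not overlap between these groups. The share of all genes without such overlap was not computed, so this is a description only. Granzyme A, a trypsin-like protease found in NK cells and cytotoxic T cells, measured 1.07, 0.668, 0.656 and 0.933 TPM in Hap-I and 4.04, 1.92, 3.98 and 2.02 TPM in Hap-II adults. Hap-II replicates 1 and 3 were the highest of all 16 libraries and replicates 2 and 4 lay near the highest aged Hap-I value of 1.92 TPM. The Hap-II mean of 2.99 ± 1.18 TPM (SD, n = 4) was 3.59 times the Hap-I mean of 0.832 ± 0.205 TPM (SD, n = 4). The Hap-I minus Hap-II difference was -1.08 ± 0.26 (SE; 95% interval -1.63 to -0.53) in log2(TPM + 1), with an unadjusted p of 0.000712 and a limma adjusted p of 0.511. It did not pass, and its adjusted p ran from 0.0288, with array weights, to 1.0 over 20 alternatives, in all of which Hap-II was higher.

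None of the 7 tested members was called for haplotype, against a background of 10 genes, or 0.0774%. At an unadjusted p under 0.05 there were 421 genes. The members' median difference was -0.13 and that of all genes -0.22. Apart from Gzma, the estimates ran from -0.22 ± 0.19 (SE) for Gzmk to 0.20 ± 0.27 (SE) for Cd3d, and the 95% intervals of these 6 differences all contained 0 and lay between -0.80 and 0.76. The pan-leukocyte sum overlapped between the groups, 35.0 to 80.2 TPM in Hap-I and 48.1 to 83.2 TPM in Hap-II. Adding its log2 mean as a covariate left the Gzma difference at -0.98. The 5 NK markers summed to 1.01 to 2.72 TPM in the Hap-I libraries, which overlapped the 0.684 to 2.57 TPM of Hap-II. Within Hap-II, Gzma averaged 3.00 TPM in the 2 libraries with Y-linked transcripts and 2.98 TPM in the 2 without.

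Against C57 adults, the line and the diet differ together, and so do the letters in the sample titles, so these cannot be told apart. Y-linked transcripts (Eif2s3y at 5 TPM or more) differed too, being present in 3 of 4 adult Hap-I, 2 of 4 Hap-II and none of the 4 C57 libraries. The numbers of all genes called with a Y-linked covariate are given in the closing section. These 2 comparisons share the 4 C57 libraries. TPM are relative to all transcripts in a library, and the median of all genes was lower by 0.80 in Hap-I and 0.59 in Hap-II (log2), while mitochondrially encoded genes took 21.2 to 34.7% of TPM in those adult libraries against 12.4 to 16.9% in C57. Changes of the members are therefore also given relative to that shift.

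Gzma rose in Hap-II on western diet relative to C57. The C57 libraries held 1.69, 1.11, 0.919 and 0.581 TPM (mean 1.07 ± 0.47, SD, n = 4), all below the lowest Hap-II library at 1.92 TPM. The ratio of means was 2.78, and the difference was 0.92 ± 0.26 (SE; 95% interval 0.37 to 1.47) with a limma adjusted p of 0.0157, higher in 4 of 4 Hap-II libraries. It was the single one of 7 tested members called, in a comparison where 39.7% of genes were called but 2.73% were called higher. The difference was 1.29 after median-of-ratios rescaling and 1.41 after quantile normalization, which centre the median of all genes near 0, with limma adjusted p of 0.0137 and 0.0094 (range over 18 alternatives 0.000713 to 0.0618). The call was lost without Hap-II replicate 3 (adjusted p = 0.0618 by limma) and without C57 replicate 4 (adjusted p = 0.0567 by limma). The median of the 7 members was 0.11 against -0.59 for all genes. The 5 NK markers summed to 0.795 to 1.66 TPM in C57, within the Hap-II range. The 4 neutrophil markers were at 9.45 to 44.2 TPM in Hap-II against 1.83 to 5.29 TPM in C57, and their part in the Gzma difference was not tested.

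In Hap-I on western diet against C57, none of the 7 tested members was called although 62.0% of all genes were, 294 of them higher and 7715 lower. At an unadjusted p under 0.05 there were 8672 genes. The members' estimates ran from -0.38 ± 0.27 (SE) for Lck to 0.31 ± 0.27 (SE) for Cd3d, with a median of -0.16 against -0.80 over all genes. Each of the 3 other scalings raised these values, and the direction for Lck turned, to 0.37 ± 0.29 (SE) with quantile normalization. In that setting Cd3d stood 0.95 higher in Hap-I, with a limma adjusted p of 0.0388, against 0.311 before. Cd3d measured 2.27 TPM in C57 replicate 1 and 0.442, 0.881 and 0.712 TPM in the other C57 libraries. The calls over all genes then split into 2017 higher and 1893 lower, and with median-of-ratios rescaling into 2304 and 1831. For Hap-II against C57 the split moved from 353 higher and 4774 lower to 1509 and 1406 with quantile normalization and to 1661 and 1262 with median-of-ratios rescaling.

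Cd8a was the member with its highest levels in C57, at 0.916, 0.994, 1.33 and 0.842 TPM. All 4 values lay above the Hap-II libraries (0.633, 0.480, 0.402 and 0.602 TPM) and above the aged Hap-I libraries, and adult Hap-I replicate 1 reached 0.865 TPM. That replicate lacked Y-linked transcripts, as did all C57 libraries, and the 3 adult Hap-I libraries with them held 0.113 to 0.513 TPM. In Hap-II, Cd8a averaged 0.502 TPM in the 2 libraries with Y-linked transcripts and 0.557 TPM in the 2 without. Without the filter, Cd8a fell by 0.47 ± 0.13 (SE) in Hap-I (limma adjusted p 0.0142) and by 0.40 ± 0.13 (SE) in Hap-II (limma adjusted p 0.0435) relative to C57. In these fits 37.6% and 21.6% of 22319 genes were called lower. Neither call held under any of the 3 other scalings, where the Hap-I difference was -0.41 to -0.03 and the Hap-II difference -0.37 to -0.03, with adjusted p of 0.0893 to 0.936 and 0.146 to 0.939. The Hap-II call was also lost without any 1 of Hap-II replicates 2 to 4 or C57 replicates 2 to 4 (adjusted p 0.063 to 0.128 by limma). Lymph node stroma markers summed to 31.2 to 62.8 TPM in the C57 libraries, more than in those of adult Hap-I (8.92 to 28.6 TPM) and of Hap-II (10.8 to 17.3 TPM). Adipose markers reached 1170 TPM in C57 against at most 249 TPM in those adults. Their part in the Cd8a levels was not tested.

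The order of the groups depended on the gene. Aged Hap-I had the highest mean of Lck, Cd3d, Cd3e, Cd3g, Nkg7, Gzmb and Gzmk, Hap-II that of Gzma and Cd4, and C57 that of Cd8a. The place of Cd4 rested on Hap-II replicate 2, since the Hap-II mean of 1.24 TPM was 0.491 TPM without it, below the C57 mean of 0.958 and the aged mean of 0.899 TPM. Between the first and the next group in that order, the libraries were apart for Gzmk (1.61 and 0.492 TPM) and Cd8a (1.02 and 0.602 TPM) and overlapped for the other 8 genes. Cd8a in C57, at 0.842 TPM or more, still overlapped adult Hap-I, which reached 0.865 TPM. The order was taken from these same values, and the share of all genes with groups apart in this way was not computed. For Gzma the overlap was slight, since the highest aged library held 1.924 TPM and the lowest Hap-II library 1.919 TPM.

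The other genes of the receptor pathway and of granule biology had calls, on the deposited TPM scale, only against C57 and all of them lower, where 59.7% of all genes were called lower in Hap-I and 36.9% in Hap-II. Of 20 genes of the receptor complex and its proximal signalling, 11 were tested, and 0 were called with age or haplotype. Their median difference with age was 0.73, against 0.32 over all genes, and 0.33 to 0.74 under the 3 other scalings. Of the 20, 9 stayed under 0.5 TPM in every adult Hap-I library and 1 did so in every aged library. A gene of this list or of those below could thus pass the filter through its aged libraries alone, which favours higher aged values. The nearest to the threshold was Lcp2, the adaptor SLP-76. It averaged 3.12 ± 0.680 TPM in aged mice and 0.724 ± 0.249 TPM in adults of the Hap-I line (SD, n = 4; difference 1.25, limma adjusted p 0.0659). Ptprc, which encodes the phosphatase CD45 of all leukocytes, differed by 1.18 (limma adjusted p 0.167). Against C57, Prkcq, Fyn and Skap1 were lower in Hap-I, by 1.52, 1.30 and 0.74, and Prkcq and Fyn in Hap-II. With quantile normalization Lcp2 was called higher in Hap-II, by 0.67 (limma adjusted p 0.0432), where 11.7% of all genes were called higher. Lcp2 was not called there under another scaling. Fyn, a kinase related to Lck, is also expressed outside T cells, as is Prkcq, a protein kinase C of T cells and muscle.

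Of 16 lineage, naive and helper genes, 6 were tested and 0 called with age or haplotype. Cd8b1, the partner chain of Cd8a, measured 1.23 ± 0.245 TPM in aged and 0.354 ± 0.263 TPM in adult Hap-I (SD, n = 4), with a limma adjusted p of 0.133, and Thy1 had one of 0.16. Against C57, Gata3, Thy1 and Tcf7 were lower in Hap-I (by 1.88, 0.96 and 0.65) and Gata3 and Thy1 in Hap-II. Gata3, a factor of helper T cells and also of the collecting duct, was at 13.6 ± 2.77 TPM in C57 (SD, n = 4), far above any CD3 chain. Of 11 activation and checkpoint genes, 4 were tested, and Cd44, an adhesion receptor of activated T cells and many other cells, was the 1 called, lower by 0.62 in Hap-I against C57.

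Of 23 cytotoxic effector and NK genes, 6 were tested and 0 were called in any of the 4 comparisons. The other scalings gave calls in Hap-I against C57, all of them higher. With median-of-ratios rescaling these were Klrd1 and Klrk1, receptor chains of NK cells and cytotoxic T cells, by 1.00 and 0.73 (limma adjusted p 0.0179 and 0.038), where 17.8% of all genes were called higher. With quantile normalization they were Klrd1 (1.21), Klrk1 (0.92) and the chemokine Xcl1 (1.32), with limma adjusted p of 0.00686, 0.0176 and 0.0489, where 15.6% were. Without mitochondrially encoded genes Klrd1 was the 1 called (0.86, limma adjusted p 0.0435), where 4.6% were. Ccl5, a chemokine released by activated T cells, measured 14.4 ± 5.1 TPM in aged and 5.93 ± 2.95 TPM in adult Hap-I (SD, n = 4; difference 1.18, limma adjusted p 0.162), and Ctsw, a protease of cytotoxic lymphocytes, 1.77 ± 0.473 and 0.569 ± 0.222 TPM (limma adjusted p 0.152). Of the 23, between 9 and 15 stayed under 0.5 TPM in every library of a group. Of 12 granule processing and release genes, 10 were tested and 0 were called with age or haplotype. Against C57, 7 were lower in Hap-I, with Rab27a, Ap3b1 and Ctsc first, where 59.7% of all genes were called lower. In Hap-II, 2 were lower, Rab27a and Lyst, where 36.9% of all genes were. Ctsc activates granzymes in T cells, but Lamp1 and Lamp2 of that list are lysosomal proteins of most cell types, and the summed level of the list was 498 to 1440 TPM. Of 5 gamma delta T cell genes only Sox13 was in the table, and it was lower in both comparisons with C57 (by 1.23 and 1.18). Sox13 was at 12.9 ± 3.53 TPM in C57 (SD, n = 4), where Cd3g averaged 2.28 TPM. It also held 3.97 to 5.23 TPM in the 8 libraries with neuronal transcripts, so its level cannot be read as that of gamma delta T cells. Under all 3 other scalings only Gata3 and Rab27a of these lists were still called lower in Hap-I (-1.70 to -0.94 and -1.85 to -1.09), where 14.2% of all genes were called lower with median-of-ratios rescaling, 14.6% with quantile normalization and 39.7% without mitochondrially encoded genes. None was in Hap-II. With median-of-ratios rescaling Lamp2 and Srgn, the granule proteoglycan serglycin, were higher than C57 in both lines, by 0.87 and 0.85 in Hap-I and by 0.83 and 1.00 in Hap-II (limma adjusted p 0.00874 to 0.0348), where 17.8% and 12.9% of all genes were called higher, and neither was called under another scaling.

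The members followed the leukocyte level of a library to different degrees. Across the 16 libraries, the Pearson r of log2(TPM + 1) with the mean of the 6 pan-leukocyte genes was 0.783 for Cd3g, 0.776 for Cd3e and 0.712 for Lck, between 0.511 and 0.576 for Nkg7, Cd4, Gzmb, Gzmk and Cd3d, 0.391 for Cd8a and 0.157 for Gzma. These are descriptions of 16 libraries in 4 groups that share scaling and tissue sampling. Among the members, Cd8a and Gzma had the lowest median r with the other 9, 0.033 and 0.063. The pair of Lck and Gzmk had an r of 0.678 over all libraries and -0.047 after the group means were removed, so their likeness lay between groups rather than within them.

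**Figure D4:**
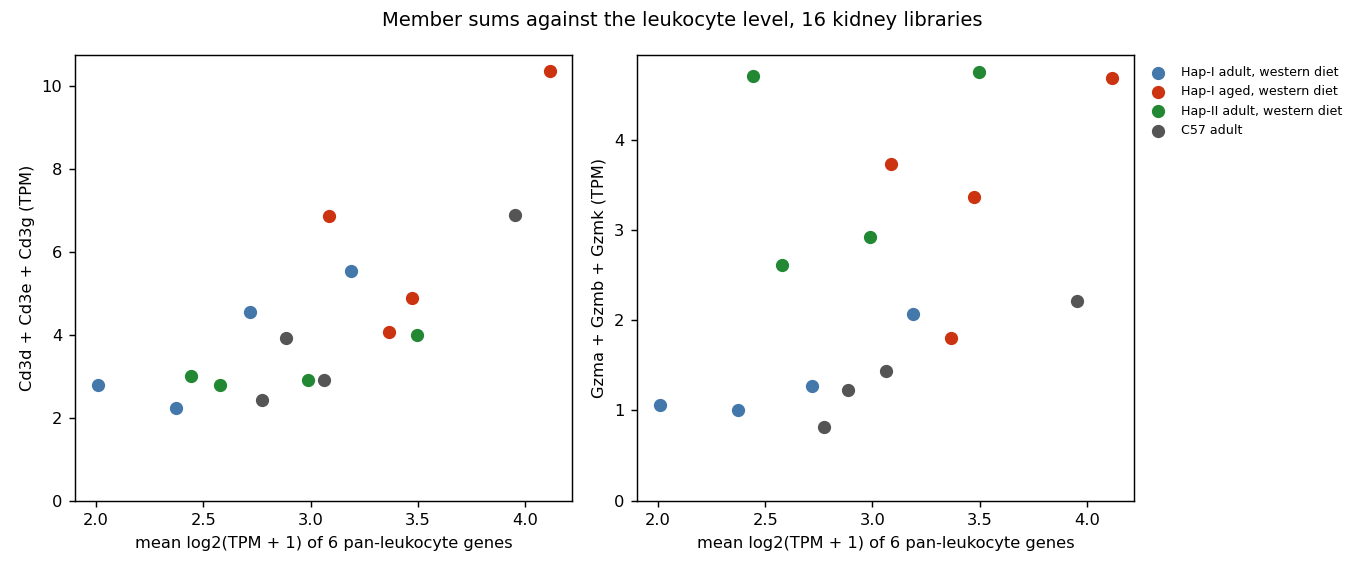
Summed TPM of the 3 CD3 chains (left) and of Gzma, Gzmb and Gzmk (right) against the mean log2(TPM + 1) of 6 pan-leukocyte genes, 1 point for each of the 16 libraries, coloured by group. The highest CD3 sums, 10.4 and 6.89 TPM, belong to the 2 libraries with the highest leukocyte level, whereas Hap-II replicate 3 has a granzyme sum of 4.71 TPM at a leukocyte level of 2.44.

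Among 11701 named genes with a mean of 1 TPM or more, the 8 most like the mean of the 3 CD3 chains and Lck were Ccl5 (Pearson r 0.884 over 16 libraries), Ifitm10, Pstpip1, Lat, Cdk1, Trbc2, Ly6c2 and Mzb1 (0.841). Lat, the adaptor of receptor signalling, and Trbc2, a constant segment of the receptor beta chain, had an r of 0.887 and 0.859 once group means were removed. The other genes of this list had 0.68 (Cdk1) to 0.793 (Ifitm10). Mzb1, one of the B and plasma cell markers, had 0.76, so the likeness was not particular to T cell genes. The 8 most like the mean of the 3 granzymes and Nkg7 were Ms4a6d (0.892), Plac8, Ms4a6c, Cd48, Ms4a4b, Aif1, Ms4a4c and Slfn2. With group means removed they had an r of 0.68 (Slfn2) to 0.867 (Ms4a6d).

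In the 8 libraries set apart, the members had another profile. Cd3e, Cd3g, Cd8a, Gzma, Gzmb and Nkg7 were at most 0.281 TPM in each, and Gzmb was listed at 0 in all 4 labelled Hap-I adult. Lck was as high there as in adult kidney, 1.21 to 3.37 TPM, and Gzmk measured 0.205 to 0.815 TPM and Cd3d 0.306 to 0.705 TPM, the latter 2 without Cd3e or Cd3g at like levels.

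**Figure D5:**
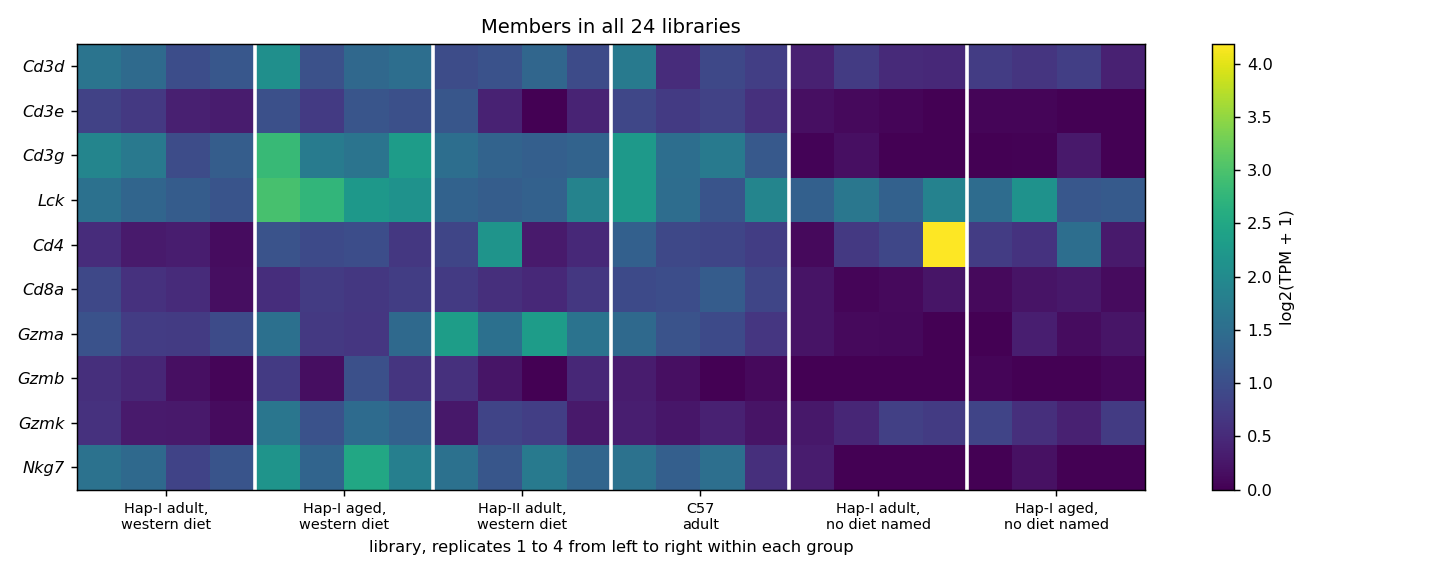
Heat map of log2(TPM + 1) (colour scale) of the 10 members (rows) in all 24 libraries (columns, by group). The 8 columns at the right are the libraries with neuronal transcripts, in which most members are near 0 while Lck stays at 1.21 to 3.37 TPM and Cd4 reaches 17.2 TPM in 1 library.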

How the data were processed

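Polyadenylated RNA of 24 samples was sequenced from stranded TruSeq libraries, per the labels' protocols. The authors deposited 1 table of TPM, which sum to 904693 to 944019 per library. Kallisto, DESeq2 and GRCm38 appear in the submitters' processing notes with neither version nor role, and the quantification annotation is not given in the sources used here. Depth is therefore unknown. Identifiers were matched to GENCODE M21 (29732 matched, 421 not).

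Values were tested as log2(TPM + 1) in the 16 kidney libraries (R 4.3.3, limma 3.58.1; group means, moderated with a mean-variance trend; two-sided). P-values were adjusted by Benjamini-Hochberg over 12923 genes, those that reached 1 TPM in at least 4 of the libraries, with a threshold of 0.05. The fit was tested on simulated data. The design text gives 4 animals per group as the replicates. The other 8 libraries entered 1 alternative.

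The members and lists were chosen with earlier results of these data known. Besides the members, genes were named by a fixed rule: per list and comparison up to 3 called with the largest change, or the 2 with the smallest p, and the 8 genes most like the members. Alternatives varied filter, pseudocount, scaling, library weights, libraries, covariates and the title number as a block.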

Additional observations from a re-analysis of the deposited data

Results flagged for a closer look

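In 5 of the 60 sets of 4 libraries examined (10 genes in 6 groups), 1 library lay apart from the other 3 by more than Dixon's 95% limit for 4 values, which chance alone exceeds in about 1 of 20 sets. Lck was 2.65 TPM in Hap-II replicate 4 on western diet, and the next Hap-II library was at 1.49 TPM. The other 4 were in the libraries with neuronal transcripts. Cd4 was 17.2 TPM in replicate 4 labelled Hap-I adult, and the next was at 0.854 TPM. Cd3g was 0.223 TPM in replicate 3 labelled Hap-I aged, and the next was at 0.021 TPM. Nkg7 was 0.245 TPM in replicate 1 labelled Hap-I adult and 0.140 TPM in replicate 2 labelled Hap-I aged, and it was listed at 0 in the other libraries of both groups.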

How the results depend on the processing

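Of 532 results of the 7 tested members under an alternative, 516 kept their side of the threshold and their direction (a direction was read only where the difference exceeded its SE), 13 passed it newly, 2 lost it and 1 turned, the Lck difference of Hap-I against C57, which was -0.38 and became 0.37 with quantile normalization. A filter of 5 TPM left no member to test. Array weights gave new calls of Gzmk, Lck and Nkg7 with age, Gzma for haplotype, and Cd3d for Hap-I and Cd3e for Hap-II against C57. The rest were Gzmk in the 4 settings given beside it, Lck with all 24 libraries, Cd3d with quantile normalization, and Cd3e without Hap-II replicate 1 (-0.49, limma adjusted p 0.0421). With array weights, 2199 of 12923 genes were called with age. The totals for haplotype and for Hap-II against C57, given below, also rose in that setting, and that for Hap-I against C57 is not given here. The array weight calls are therefore no result particular to the members. For Cd4, Cd8a and Gzmb, fitted without the filter, 183 of 204 results kept side and direction. Cd8a lost its call in 6 of 17 alternatives for Hap-I and in 12 of 17 for Hap-II against C57, 6 of them with 1 library left out (adjusted p up to 0.128 by limma). Cd4 in Hap-I against C57 passed newly in 3.

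The numbers of genes called moved more. With age there were 4, against 443 with all 24 libraries, 2199 with array weights, and 2 each with the 2 groups alone, the pan-leukocyte covariate, the title number as a replicate block or the 12 western diet libraries. Leaving out 1 library gave 2 to 30, the highest without aged replicate 4. For haplotype there were 10, against 51 with array weights, 6 with the pan-leukocyte covariate, 5 with the replicate block and 5 with the 12 libraries, and 6 to 8 with 1 library left out. For Hap-I against C57 there were 8009, against 4135 with median-of-ratios rescaling, 3910 with quantile normalization and 3284 with the Y-linked covariate (6038 to 8124 with 1 library left out). For Hap-II against C57 there were 5127, against 2923 and 2915 with those scalings, 3352 without mitochondrially encoded genes, 9706 with array weights and 1926 with the Y-linked covariate (1796 to 6977, the lowest without Hap-II replicate 3). The causes were not tested.

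The deviations of same-numbered western diet libraries from their group means had an r of -0.136 to 0.525 over 12 pairs. Pairs with different numbers had -0.499 to 0.55. Only 2 of 12 libraries correlated best with their own number in each of the other groups, which is a strict criterion. These values do not settle whether the numbers pair the samples. With the block no member was called (Gzmk with age 1.04, limma adjusted p 0.148). Against C57 no paired analysis was possible because the C57 titles carry other numbers. Depth is unknown, so differences among values well under 1 TPM are the least certain.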
